A study of Mus musculus with 8 samples.

Results

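The 40 genes described here are a module of the mitotic cell cycle, chosen by symbol from the 27998 genes counted in single cells of mouse small intestinal crypts, and all 40 were found in the data. By role they comprised 5 genes of chromosome structure and packing, 5 cyclins and cyclin-dependent kinase components, 3 genes of the anaphase-promoting complex pathway, 4 mitotic kinases, 3 members of the chromosomal passenger complex, 4 kinetochore and centromere genes, 5 kinesins, 8 spindle assembly genes and 3 cytokinesis genes. The name spindle and kinetochore genes therefore covers only some of them, since Mki67, Top2a, Smc4, Ncapd2 and Cks2, among others, work on chromosomes or on Cdk1 rather than on the spindle. Epithelial cells positive for EpCAM and negative for DAPI had been sorted from crypts of adult female mice on a C57BL/6 background. WT denotes control mice, which carried at the H11 locus a reporter made of the core of ieCtnnb1, an intestinal enhancer upstream of Ctnnb1, a Shh promoter and LacZ-iCre, so that they were not unmodified animals. KO denotes mice with a homozygous germline deletion of ieCtnnb1 in every cell (Ctnnb1 Δi.enh). The labels list 4 samples in each group, while the text on this experiment gives fewer animals, which could not be settled here. Cells of the animals of a genotype had been pooled and each group was deposited as 1 matrix, so there were no replicates, no difference could be tested against a spread between animals, and every interval below is a 95% interval of counting error alone.

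Cells divide in the crypt among stem cells at its base and progenitors above them, and stop dividing as they mature into absorptive enterocytes and secretory Paneth, goblet, enteroendocrine and tuft cells. Transcripts of mitotic genes build up in G2 and are lost after division. Cyclins A and B switch on Cdk1, the kinases and motors build the spindle, kinetochores attach chromosomes to it, and the anaphase-promoting complex with Cdc20 and Ube2c then degrades the cyclins. Many of these genes are repressed outside G2 through promoter elements known as CDE/CHR and are switched on in G2 by MuvB complexes with B-MYB and FOXM1, and NF-Y binds the CCAAT boxes of their promoters.

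The WT matrix held 15987 barcodes and 134876816 UMIs (unique molecular identifiers, which tag captured transcripts one by one), and the KO matrix 12763 barcodes and 123794575 UMIs. Barcodes with at least 200 genes and at most 30% mitochondrial UMIs were kept, which left 13095 WT cells with a median of 6675 UMIs and 8658 KO cells with a median of 8692. Over the mitochondrial limit lay 1898 WT and 4084 KO barcodes. Ctnnb1, whose enhancer is deleted in KO, stood at 203 CPM (UMIs of a gene in every 1000000) in WT progenitors as gated below against 127 in KO (log2 ratio −0.68, −0.78 to −0.57), and the deletion leaves the gene itself intact. The median log2 ratio of all genes with at least 50 UMIs in those progenitors was −0.36. Of the barcode sequences, 57 occurred in both matrices, 29 of them among kept cells.

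Cell types were gated with marker genes that hold none of the 40 members. Each panel was scored per cell as a standardized mean of log-scaled UMIs. Stem cells scored at least 1 SD above the mean on 9 genes led by Lgr5, Ascl2 and Olfm4, progenitors were the cells below that limit that scored at least 1 on 27 DNA replication genes such as Mcm2 and Pcna, and both had no lineage panel past its limit. There were 1415 WT and 835 KO stem cells, 610 and 772 progenitors, and 5577 and 1791 secretory cells (Paneth, goblet and enteroendocrine). These gates are ranges of a score and not clusters: 105 WT and 126 KO progenitors lay within 0.25 of the limit. Progenitors also carried 38317 CPM of Paneth panel transcripts in WT and 28468 in KO, while transcripts of lymphocytes stood at 3.71 and 5.84 CPM and those of stroma, endothelium and blood at 0.337 and 0.142 CPM, with 6 of 11 and 8 of 10 panel genes at 0 UMIs in both. Depth differed within gates, with a median of 9202 UMIs in WT and 17921 in KO progenitors and 8170 and 13472 in stem cells. The methods give the chip chemistry as v2 or v3 without saying which matrix had which, so chemistry, depth and genotype cannot be told apart.

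Among cell types the summed members were most abundant in dividing compartments of both genotypes. The progenitor gate was set by DNA replication genes, so a high level of other cell cycle genes there was in part fixed by the gate. Summed over the 40 genes the level was 4680 CPM in WT progenitors (4625 to 4736) and 4460 in WT stem cells (4423 to 4497), against 2521 in goblet, 2341 in tuft, 1634 in enteroendocrine, 437 in enterocyte and 293 in Paneth cells. In KO the sums were 2818 CPM in progenitors, 2634 in stem cells, 2525 in tuft, 2190 in enteroendocrine, 1971 in goblet, 378 in enterocyte and 305 in Paneth cells. Each of the 40 genes was higher in progenitors than in enterocytes, with a median log2 ratio of 3.51 in WT (2.80 to 5.38) and 2.95 in KO (2.23 to 4.28). Enterocytes and Paneth cells should lack these transcripts, and their level serves as the background of free RNA and mixed cells in each matrix. Stem cells and progenitors lay close together: 11 members were higher in stem cells in WT and 15 in KO, with median log2 ratios of stem to progenitor of −0.06 and −0.07. The highest of 7 gates was the progenitor gate for 29 genes and the stem gate for 11 in WT. In KO it was the progenitor gate for 18, the stem gate for 9, the tuft gate for 11 and the enteroendocrine gate for 2. Tuft and enteroendocrine gates were small, with 57 and 73 KO cells, and their sums came from few cells, since the tuft cells had a mean of 26.7 but a median of 3 member UMIs in KO and a mean of 9.39 and a median of 1 in WT.

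**Figure D1:**
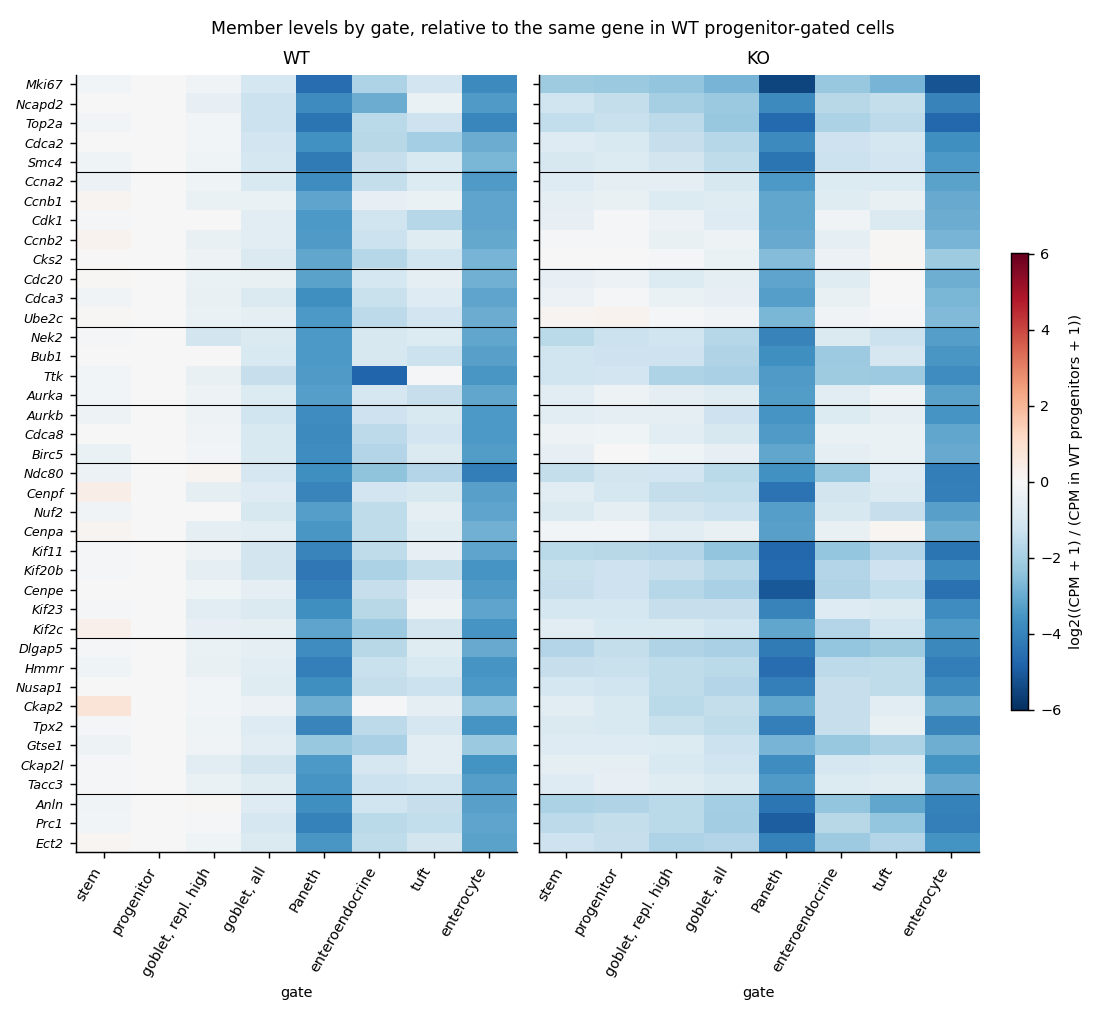
Level of each member (rows, grouped by role) in each gate (columns) of the WT and KO matrices, as the log2 of CPM plus 1 over the CPM plus 1 of the same gene in WT progenitors. Stem, progenitor and replication-high goblet cells are near the reference in WT, Paneth cells and enterocytes are far below it, and in KO the dividing gates are paler for cyclins and Ube2c than for kinesins and cytokinesis genes.

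Single genes followed this order. Mki67, the antigen that coats mitotic chromosomes (chr7:135689784-135716361, minus strand, build GRCm38), stood at 501 CPM in stem cells, 556 in progenitors, 271 in goblet, 22.3 in Paneth cells and 38.3 in enterocytes of WT, and at 127, 117, 78.8, 11.1 and 14.3 in KO. Top2a, the topoisomerase that untangles sister chromatids, stood at 535, 605, 247, 27.7 and 39.7 CPM in the same WT gates and at 216, 240, 126, 22.7 and 22.1 in KO. In both genes every WT gate was above the KO gate of the same name. Cdk1, the kinase that drives entry into mitosis, stood at 91.7, 96.2, 59.8, 7.83 and 9.86 CPM in WT and at 68.3, 87.9, 56.2, 10.1 and 11.5 in KO. For Ube2c, the ubiquitin carrier of the anaphase-promoting complex (chr2:164769898-164778822, plus strand), the WT levels were 319, 300, 209, 27.0 and 37.1 CPM and the KO levels 337, 344, 260, 44.1 and 46.9. Ube2c was thus higher in KO in all 5 of these gates, its levels in cells that should lack it included, but lower in KO progenitors of 5000 to 15000 UMIs. Cenpf, a large coat protein of the outer kinetochore, was among the 11 members higher in stem cells than in progenitors of WT, at 268 against 204 CPM. In KO it stood at 126 CPM in stem cells against 99.1 in progenitors.

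What the members share beyond their annotation can be read in their promoters. RefSeq promoter sequences (build GRCm38.p6, from 250 bases before to 50 after the annotated start) were matched for 34 of the 40 genes. Searched on both strands, TTTGAA (a CHR element) was present in 24 of the 34 (70.6%) and in 11.9% of the 7627 promoters of genes measured in progenitors. The related hexamer TTTAAA was present in 9 (26.5%) against 8.79%, and either in 28 (82.4%) against 19.0%. CCAAT was found in 26 members (76.5%) against 39.3%, and 2 or more CCAAT in 21 (61.8%) against 16.0%. For the 23 replication panel genes with a promoter, TTTGAA was in 8.70% and CCAAT in 52.2%, and for 61 other mitotic genes in 54.1% and 67.2%. None of these letters was found in the windows of Nuf2, Nusap1 and Tacc3. The windows of Ccnb2 (chr9:70421525-70421674, minus strand), Cdc20 (chr4:118437314-118437463, minus strand), Ube2c (chr2:164769809-164769958, plus strand) and Top2a (chr11:99024160-99024309, minus strand) are shown from 120 bases before to 30 after the start, 5′ to 3′ on the strand of the gene, because they show the arrangement of the motifs in 3 members fixed by name and in Top2a, which was added after its lower ratio in KO was seen. Capitals mark CCAAT or its reverse complement ATTGG, and TTTGAA or its reverse complement TTCAAA.
Ccnb2: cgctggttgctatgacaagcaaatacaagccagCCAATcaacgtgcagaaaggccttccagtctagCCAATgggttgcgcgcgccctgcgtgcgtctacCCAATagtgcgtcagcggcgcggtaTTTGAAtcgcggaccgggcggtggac
Cdc20: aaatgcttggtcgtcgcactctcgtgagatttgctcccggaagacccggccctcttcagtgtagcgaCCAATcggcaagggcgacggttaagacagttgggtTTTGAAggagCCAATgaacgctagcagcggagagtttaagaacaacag
Ube2c: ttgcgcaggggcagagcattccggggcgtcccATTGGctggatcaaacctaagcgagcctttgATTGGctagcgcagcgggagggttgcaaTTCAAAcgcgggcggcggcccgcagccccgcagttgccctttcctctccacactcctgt
Top2a: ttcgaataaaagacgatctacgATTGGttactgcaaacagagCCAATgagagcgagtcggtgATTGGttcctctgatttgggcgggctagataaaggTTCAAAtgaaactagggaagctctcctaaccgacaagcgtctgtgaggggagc

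Ccnb2 carried CCAAT at −87, −54 and −21 and TTTGAA at 4, counted from the annotated start, and Cdc20 had CCAAT at −53 and −8 with TTTGAA at −18 between them. In Ube2c the reverse complement of CCAAT stood at −88 and −57 and that of TTTGAA at −29. Top2a held CCAAT in either direction at −98, −78 and −58 and the reverse complement of TTTGAA at −23. Set beside the change in progenitors, the median log2 ratio of KO to WT was −1.02 for the 26 members with CCAAT and −1.04 for the 8 without, and −1.07 for the 24 with TTTGAA and −0.78 for the 10 without. For the 21 members with 2 or more CCAAT it was −0.59, and for the other 13 it was −1.14, a difference that was not tested. Transcript length, with which the ratios ran as described below, was not held equal between these groups. Cks2 and Ccnb2, the shortest members at 692 and 1531 bases, are among the 21, as is Cenpf, the longest at 15433. All 5 kinesins, of 4363 to 8620 bases, are among the 13.

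The comparison of KO with WT asked how the mitotic program of the crypt stood without the enhancer. In progenitors the summed level of the members was lower in KO, at 2818 against 4680 CPM (log2 ratio −0.73, −0.75 to −0.71), and in stem cells it was 2634 against 4460 CPM (−0.76, −0.78 to −0.74). In progenitors 37 of 40 members were below 0, with a median log2 ratio of −0.94 and quartiles of −1.33 and −0.44, where 68.6% of the 9859 genes with at least 50 UMIs were below 0 and their median was −0.36. At least 2-fold lower in KO were 18 of 40 members, against a background of 16.8% of all genes, and at least 2-fold higher 0 members against 0.69%. In stem cells 38 of 40 were below 0 against 70.4% of all genes, 20 of 40 were at least 2-fold lower against 15.5%, and the median was −0.92 beside −0.36 for all genes. Counted per cell in place of CPM the members were not lower: a progenitor held on average 45.5 member UMIs in WT and 51.2 in KO, and a stem cell 39.4 and 40.4, while all UMIs of a cell were 1.87 and 1.74 times as many in KO. The summed ratio rests in part on Mki67 and Top2a, and without them it was −0.52 in progenitors and −0.58 in stem cells.

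**Figure D2:**
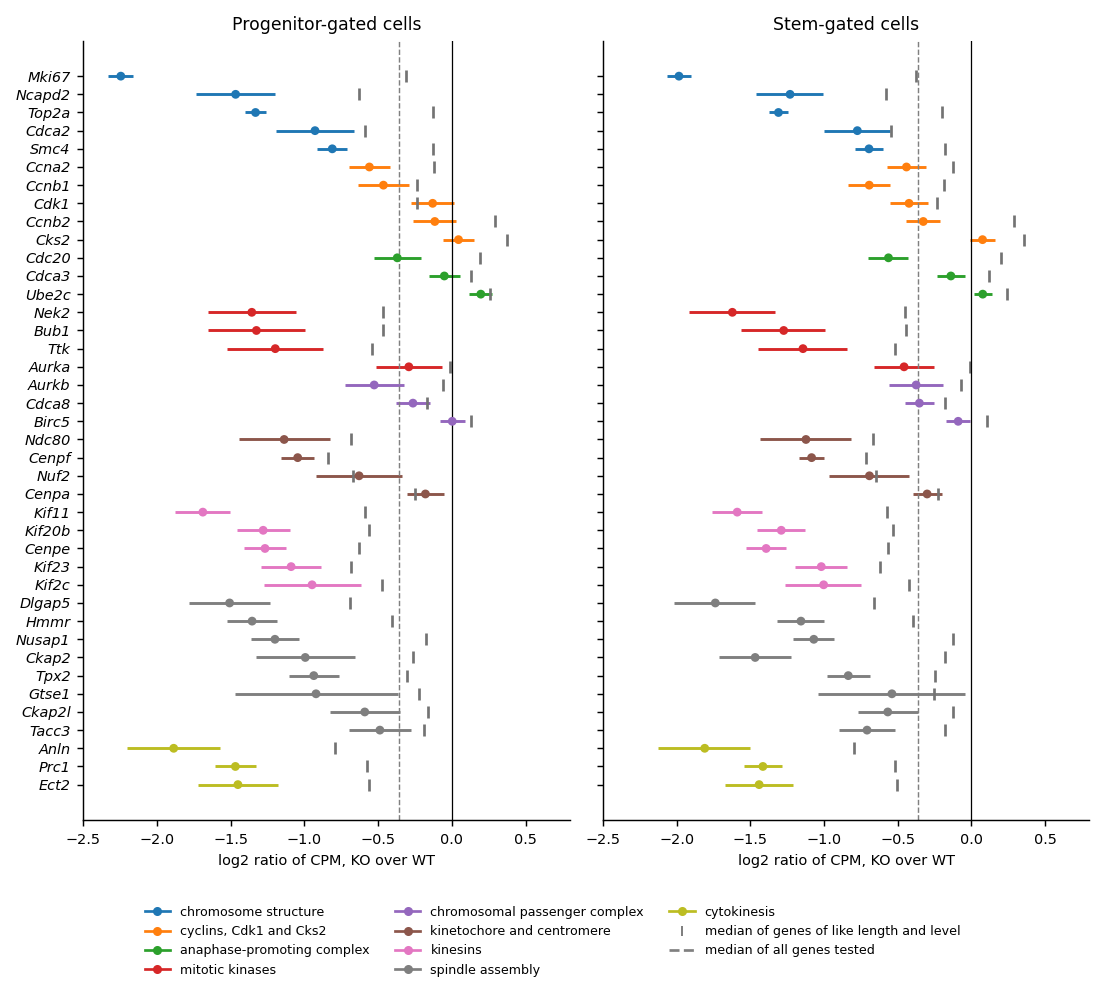
Log2 ratio of KO to WT CPM for each of the 40 members in progenitors (left) and stem cells (right), with 95% counting intervals, coloured by role. Grey ticks give the median of genes of like length and level and the dashed line the median of all genes measured, and kinesins, cytokinesis genes and Mki67 lie far to the left of both while Ube2c, Cks2 and Birc5 lie at or near 0.

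The ratios ran with transcript length, which here is the length of the exons of a gene added up without overlap. Member lengths ranged from 692 bases for Cks2 to 15433 for Cenpf, with a median of 4926.5 against 4447 for all genes measured in progenitors. Across the 40 members Spearman's rho of length and ratio was −0.71 in progenitors and −0.68 in stem cells, as a description over genes that share the same 2 matrices. All genes showed the same slope, with medians of 0.20, −0.23, −0.57 and −0.86 over 4 equal bins of genes from short to long in progenitors. In those bins the members had medians of −0.20, −0.56, −1.04 and −1.33, and 0 of 6, 2 of 11, 7 of 14 and 9 of 9 were at least 2-fold lower, where all genes gave 2.40%, 7.39%, 19.6% and 37.9%. Members thus lay below the median of all genes in each bin. When each member was set against genes within 0.5 log2 units of its length and within a factor of 2 of its level, the median difference was −0.52 in progenitors, with 37 of 40 members below their like genes, and −0.55 in stem cells, with 40 of 40 below. Cdk1, Cenpa and Nuf2 were the 3 not below in progenitors, at 0.10, 0.07 and 0.04 above. Mki67 was farthest below, by 1.93 log2 units.

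**Figure D3:**
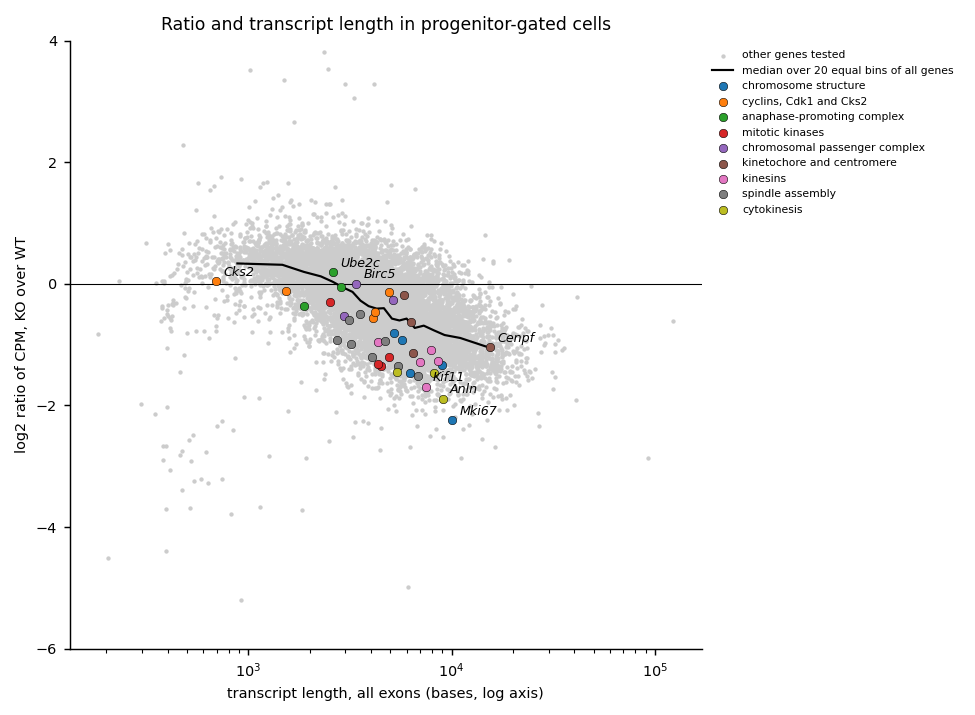
Log2 ratio of KO to WT CPM in progenitors against transcript length in bases on a log axis, for all genes measured (grey), their median in 20 equal bins (line) and the 40 members (coloured by role). Short members such as Cks2 and Ube2c lie near 0 and long ones such as Mki67, Anln and Kif11 lie lowest, and most members fall under the line.

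As a sum, genes of chromosome structure were among the lowest in KO. Their sum was 1468 CPM in WT progenitors against 522 in KO (−1.49, −1.54 to −1.45), and all 5 members were below 0. Mki67 and Top2a, at 556 and 605 CPM in WT, made up most of this sum. Smc4 and Cdca2 lay above the median member of the module, which stood at −0.94. Mki67 stood at 556 CPM (537 to 576) against 117 CPM (112 to 123), giving −2.25 (−2.33 to −2.16) on the log2 scale, and it was lower per cell as well, with 5.40 UMIs in WT and 2.13 in KO. Top2a had a ratio of −1.33 and was lower per cell too, at 5.88 and 4.37 UMIs. Ncapd2, a condensin subunit, was at 42.3 and 15.3 CPM (−1.47, −1.74 to −1.20), whereas Smc4, the condensin ATPase, was at 228 and 130 CPM (−0.81, −0.91 to −0.71) and held 2.22 and 2.37 UMIs per cell. Cdca2, which brings a phosphatase to chromatin, had a ratio of −0.93.

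Cyclins and Cdk1 partners were lower by less. The 5 genes summed to 555 CPM in WT progenitors against 489 in KO (−0.18, −0.24 to −0.12), and in cells of 5000 to 15000 UMIs the ratio was −0.41. Ccna2, cyclin A2, was lowest at 112 and 75.7 CPM (−0.56, −0.70 to −0.42), and Ccnb1, cyclin B1, was at 73.7 and 53.4 CPM (−0.46, −0.64 to −0.29). Cdk1 was at 96.2 and 87.9 CPM (−0.13, −0.28 to 0.02), and Ccnb2 had a ratio of −0.12. Cks2, the small Cdk1 adaptor and the shortest member, was at 178 and 184 CPM (0.05, −0.06 to 0.15), which is within counting error of equality. In stem cells the group stood at −0.26, or −0.62 in that depth range, with Ccnb1 lowest at −0.69 (−0.84 to −0.55) and Cks2 highest at 0.07 (−0.01 to 0.16).

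The anaphase-promoting complex group had the highest ratio of the 9 groups, but transcript length was not held equal between groups. Its members are 1868 to 2866 bases long, and the cytokinesis genes, whose summed ratio was lowest in progenitors, 5386 to 9063. Relative to genes of like length and level, its 3 members stood at −0.76 to −0.16 in stem cells and the 5 kinesins at −1.02 to −0.40. Ube2c, Cdc20 and Cdca3 summed to 562 CPM in WT progenitors against 581 in KO (0.05, −0.01 to 0.11), a ratio that turned to −0.36 in cells of 5000 to 15000 UMIs. Cdc20, the activator that the spindle checkpoint holds back, was at 82.2 and 63.6 CPM (−0.37, −0.53 to −0.21). Ube2c was at 300 and 344 CPM (0.20, 0.12 to 0.28), the only member whose interval lay above 0 in progenitors, and in the depth range just named it was at 297 and 239 CPM (−0.31, −0.46 to −0.18). Tnnc2 overlaps Ube2c and Elovl1 overlaps Cdc20 on the other strand, and the sources used here do not give whether reads were assigned by strand.

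Mitotic kinases were spread widely. Nek2, a kinase of centrosome separation, was at 33.4 and 13.0 CPM in WT and KO progenitors (−1.36, −1.66 to −1.06), and the checkpoint kinases Bub1 and Ttk had ratios of −1.33 and −1.20. Aurka, the kinase of the spindle poles, was at 43.5 and 35.6 CPM (−0.29, −0.51 to −0.07). The chromosomal passenger complex, which corrects faulty attachments, had a summed ratio of −0.13 (−0.20 to −0.07), which was −0.40 in cells of 5000 to 15000 UMIs. Its kinase Aurkb was lowest, at 55.3 and 38.4 CPM (−0.53, −0.73 to −0.32), and Birc5, or survivin, highest, at 273 CPM in both matrices (0.00, −0.08 to 0.09). Cdca8, or borealin, had a ratio of −0.26.

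Kinetochore genes had a summed ratio of −0.67 (−0.75 to −0.60) in progenitors. Ndc80, the microtubule-binding subunit of the outer kinetochore, was at 28.9 and 13.1 CPM (−1.14, −1.45 to −0.83), while its partner Nuf2 had a ratio of −0.63 (−0.92 to −0.34). Cenpa, the histone variant of centromeres, was at 131 and 116 CPM (−0.18, −0.30 to −0.05). Cenpf, the longest member, was at 204 and 99.1 CPM (−1.05, −1.16 to −0.93), and genes of its length and level had a median of −0.84. It thus lay 0.21 below them, against 1.93 for Mki67.

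All 5 kinesins were low, with a summed ratio of −1.30 (−1.39 to −1.22) in progenitors and −1.31 in stem cells. Kif11, the motor that pushes spindle poles apart, was at 93.3 and 28.9 CPM in progenitors (−1.69, −1.88 to −1.50) and 89.7 and 29.8 CPM in stem cells (−1.59), and a progenitor held 0.907 of its UMIs in WT and 0.526 in KO. Cenpe, the kinesin that carries chromosomes to the spindle equator, was at 133 and 55.2 CPM (−1.27, −1.41 to −1.12). Kif20b and Kif23, which act in cytokinesis, had ratios of −1.28 and −1.09, and Kif2c, a microtubule depolymerase, was the highest kinesin at 23.8 and 12.3 CPM (−0.95, −1.28 to −0.62). Their lengths ran from 4363 to 8620 bases, and the 5 lay 0.41 to 1.10 log2 units below genes of like length and level.

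Spindle assembly genes summed to 453 CPM in WT progenitors against 223 in KO (−1.02, −1.10 to −0.95), and all 8 were below 0. Dlgap5, a stabilizer of kinetochore fibres, was lowest at 40.3 and 14.2 CPM (−1.51, −1.79 to −1.23), and Tacc3, which cross-links those fibres, was highest at 50.3 and 35.8 CPM (−0.49, −0.70 to −0.28). Between them lay Hmmr at −1.36, Nusap1 at −1.20, Ckap2 at −0.99, Tpx2 at −0.94, Gtse1 at −0.92 with only 52 and 65 UMIs, and Ckap2l at −0.59. Cytokinesis genes had the lowest summed ratio of the 9 groups in these progenitors, with 232 and 80.7 CPM (−1.52, −1.64 to −1.41). Anln, the scaffold of the contractile ring, was at 36.1 and 9.76 CPM (−1.89, −2.21 to −1.57), Prc1, the bundler of the central spindle, had a ratio of −1.47, and Ect2, the activator of RhoA at the division plane, was highest of the 3 at 41.5 and 15.2 CPM (−1.45, −1.72 to −1.18).

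**Figure D4:**
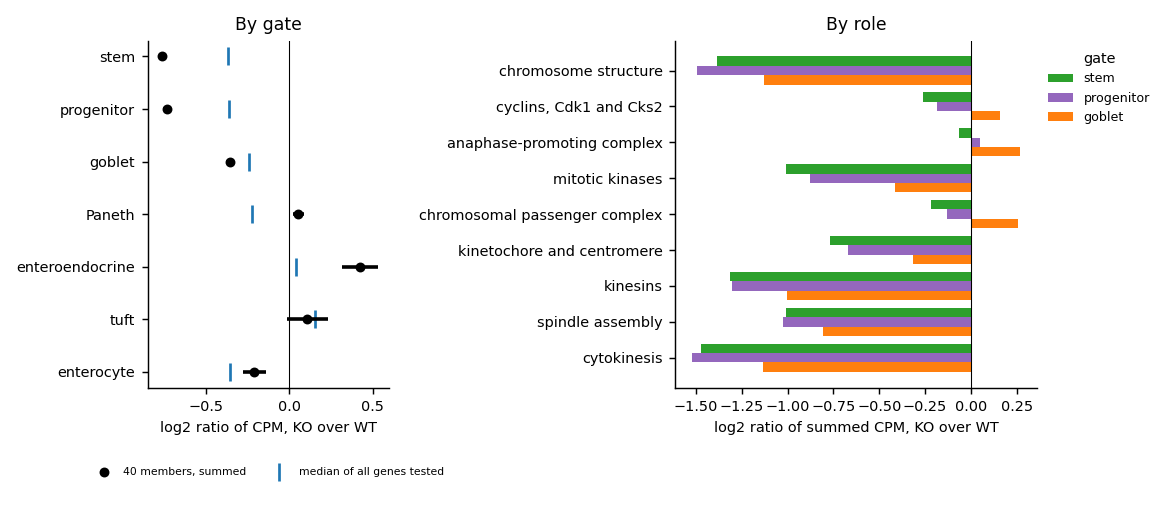
Left, log2 ratio of KO to WT for the 40 members summed in each gate (points, with 95% counting intervals) beside the median of all genes measured in that gate (ticks). Right, the same ratio for each role group in stem, progenitor and goblet cells (bars from 0), with the cyclin, anaphase-promoting complex and passenger groups nearest 0 in stem cells and progenitors and above it in goblet cells, where they turned below 0 in cells of 5000 to 15000 UMIs.

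Because KO cells were deeper, the comparison was repeated in cells of 5000 to 15000 UMIs, which left 469 WT progenitors with a median of 9128 UMIs and 234 KO progenitors with a median of 11068. There the sum was 4799 CPM in WT against 2395 in KO (−1.003). The median member stood at −1.16 beside −0.33 for all genes, and 22 members were at least 2-fold lower, against 16.8% of 8226 genes. All 40 members were below 0, where 68.6% of genes were in progenitors of any depth. The member UMIs per progenitor were 44.9 in WT and 26.2 in KO, so the near equality per cell seen in all progenitors was not seen in this range. Spearman's rho of length and ratio stayed at −0.67. In stem cells of that range the summed ratio was −1.07. The range kept 469 of 610 WT progenitors but 234 of 772 KO progenitors, all of them below the full KO median of 17921 UMIs. Of goblet cells it kept 957 of 1916 in WT and 211 of 755 in KO. Values in this range thus came from unlike parts of a gate in WT and KO.

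Thinning every cell to 1000 UMIs gave the same direction in the share of cells with member transcripts. At least 3 member UMIs were found in 66.8% of 608 WT progenitors (62.9% to 70.5%) and in 42.5% of 751 KO progenitors (38.9% to 46.1%), and at least 10 in 11.2% and 1.07%. In stem cells the shares with at least 3 were 58.8% (56.2% to 61.5%) and 37.2% (33.9% to 40.6%). The background in cells that should lack the members was 3.28% and 2.06% in enterocytes and 2.74% and 1.38% in Paneth cells. Without thinning, 97.4% of WT and 95.1% of KO progenitors had at least 3 member UMIs. The 2 WT and 21 KO progenitors under 1000 UMIs were left out of the thinned shares.

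**Figure D5:**
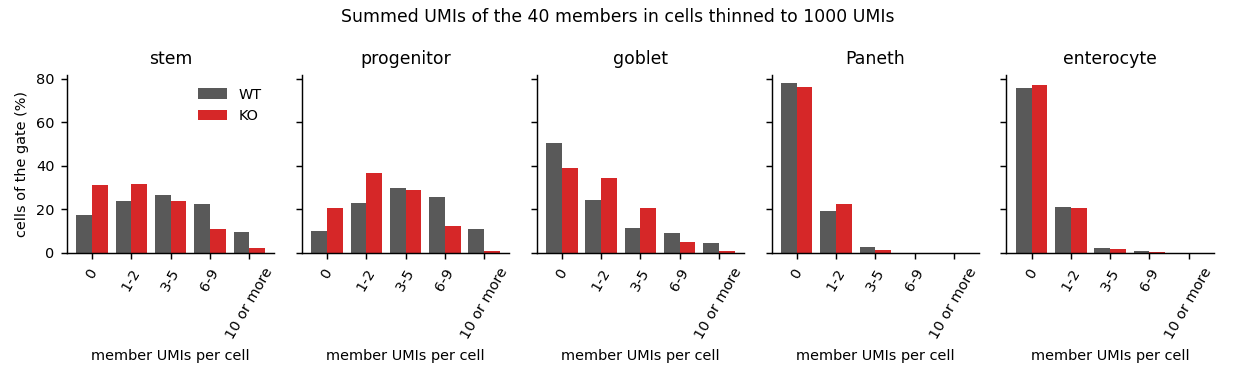
Share of cells in percent by the number of summed member UMIs after thinning each cell to 1000 UMIs, for WT (grey) and KO (red) in 5 gates. In stem cells and progenitors the KO bars are taller at 0 and at 1 to 2 UMIs and shorter at 6 or more, and in Paneth cells and enterocytes both matrices are mostly at 0.

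Each gene was also measured in thinned progenitors with at least 3 UMIs of the other 39 members, a selection that uses the module itself and is only descriptive. It sets a minimum member level in both matrices and can thereby draw member ratios toward 0, while genes outside the module are not bound in this way. It therefore cannot tell fewer cells in mitosis from less mitotic RNA per such cell. For the 22 members with at least 50 UMIs in these cells the median log2 ratio was −0.34, with 16 below 0, beside a median of −0.33 for all genes in them. Before thinning these cells had a median of 9083.5 UMIs in WT and 19588 in KO. In cells chosen by the other 39 members, Mki67 stood at 756 CPM in 369 WT cells and 196 CPM in 301 KO cells (−1.95, −2.38 to −1.54). Kif11 chosen in the same way was at 126 and 47.0 CPM (−1.42, −2.36 to −0.57). Birc5 was at 368 and 394 CPM (0.096, −0.27 to 0.46), and Ube2c at 435 and 488 CPM (0.16, −0.17 to 0.50). Birc5 and Ube2c were thus within counting error of equality in these cells, while the intervals of Mki67 and Kif11 lay below 0.

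In secretory cells the members gave no single direction. Summed over the secretory gates they stood at 617 CPM in WT against 734 in KO (0.25, 0.23 to 0.27), with a median member at 0.02 beside 0.02 for all genes, 1 of 40 at least 2-fold lower against 5.87% and 0 at least 2-fold higher against 6.23%. This sum mixes gates in different shares, as Paneth cells, the gate poorest in members, were 3464 of the 5577 WT and 963 of the 1791 KO cells. The ratio turned to −0.094 with genes above 1% of UMIs out of the denominator and to −1.15 in cells of 5000 to 15000 UMIs. In goblet cells alone the summed level of the members was lower, at 2521 and 1971 CPM (−0.36, −0.38 to −0.33). That ratio was −0.19 with cells weighted equally and −1.63 in cells of 5000 to 15000 UMIs. The median member stood at −0.63, with 33 of 40 below 0 against 61.7% of all genes. At least 2-fold lower were 9 of 40 against 14.3%. Counted per cell the members were higher in KO, at 14.9 UMIs in WT and 33.0 in KO. After thinning to 1000 UMIs, 25.1% of WT and 26.5% of KO goblet cells had at least 3 member UMIs. Thinned cells with 0 were 50.4% and 39.2%, and those with at least 10 were 4.73% and 0.967%. Within goblet cells that were also high in replication genes (164 WT and 149 KO cells), the levels were 3832 and 2309 CPM (−0.73, −0.78 to −0.68), and 18 of 39 measured members were at least 2-fold lower against 14.6%. By role these replication-high cells ran from −1.59 for cytokinesis and −1.53 for chromosome structure to −0.22 for the passenger complex, −0.11 for the cyclins and 0.10 (−0.03 to 0.23) for the anaphase-promoting complex. In all goblet cells the roles ran from −1.13 for cytokinesis and for chromosome structure to 0.27 for the anaphase-promoting complex, 0.26 for the passenger complex and 0.16 for the cyclins, although those 3 groups turned to −1.26, −1.12 and −1.10 in goblet cells of 5000 to 15000 UMIs. The goblet gate differed in more than genotype, since median depth was 5317 UMIs in WT and 16898 in KO goblet cells. The replication panel stood at 544 CPM in WT and 718 in KO goblet cells, and the goblet panel at 142304 and 99034 CPM.

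Paneth cells stood at 293 and 305 CPM (0.055, 0.022 to 0.087), a ratio that turned to −0.029 with abundant genes out of the denominator, and 5 of 40 members were at least 2-fold lower against 10.3%. Over 4 length bins from short to long, members in Paneth cells had medians of 0.43, 0.06, −0.13 and −0.99. All genes had 0.24, −0.10, −0.35 and −0.62 in those bins. Mki67 stood at 22.3 and 11.1 CPM (−1.01), Cenpe at 6.70 and 2.95 CPM (−1.19) and Cks2 at 19.4 and 28.9 CPM (0.57). Single members departed from this order, as Gtse1, of 2742 bases, was lower in KO at 1.01 and 0.403 CPM. Cenpa, of 5860 bases, was higher at 10.7 and 12.9 CPM. Enteroendocrine cells stood at 1634 and 2190 CPM (0.42, 0.32 to 0.53), where 20 members had at least 50 UMIs and 6 of them were at least 2-fold higher against 14.1%, but the summed ratio turned to −1.64 in the 23 WT and 23 KO cells of 5000 to 15000 UMIs. The enteroendocrine gate differed in more than genotype, with a median of 2562 UMIs in WT and 13421 in KO, and a replication panel at 515 and 1085 CPM. In enterocytes the sum was 437 and 378 CPM (−0.21, −0.28 to −0.14), a ratio of −0.046 with cells weighted equally and of −1.32 in the 762 WT and 717 KO cells of 5000 to 15000 UMIs, beside a median of −0.35 for all genes, and 3 of 27 measured members were at least 2-fold lower against 17.3%. The slope on length was present in these gates as well, with rho of −0.57 in Paneth cells, −0.68 in enteroendocrine cells and −0.79 in enterocytes.

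Over all kept cells the members stood at 1548 CPM in WT and 1415 in KO (−0.13, −0.14 to −0.12), with 4 of 40 at least 2-fold lower against 7.37%. The difference was thus smaller over all cells than within stem cells or progenitors, and progenitors made up 4.66% of kept WT and 8.92% of kept KO cells. In bulk terms, fewer dividing cells and less mitotic RNA per dividing cell could not be told apart from such a sum.

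Other mitotic genes were counted from a list of 73 that holds no member. In progenitors 72 had at least 50 UMIs, their median log2 ratio was −0.80, 64 were below 0 and 26 were at least 2-fold lower, against the same 16.8% of all genes, and 0 were at least 2-fold higher. The lowest were the kinesin Kif14 at 15.5 and 3.42 CPM (−2.18), the kinesin Kif4 at 60.9 and 16.5 CPM (−1.88) and Iqgap3 at 29.7 and 8.48 CPM (−1.81). The highest were Pttg1, or securin, at 36.9 and 48.4 CPM (0.39), Cks1b at 70.9 and 87.7 CPM (0.31) and the centromere gene Cenpm at 34.6 and 42.5 CPM (0.30). The 27 replication genes that gated the progenitors stood at 2035 and 1839 CPM there (−0.15), with 1 of 27 at least 2-fold lower, which is a value the gate itself bears on. In stem cells, whose gate did not require them, they were at 1502 and 1468 CPM (−0.03), with 0 of 27 at least 2-fold lower against 15.5%, beside 20 of 40 members. Whether the members differ from the replication genes beyond their lengths was not tested.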

How the data were processed

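Cells had been captured on 10x Genomics chips whose chemistry is given as v2 or v3, and libraries made with a 3-prime v2 kit. Per the file headers the authors made the deposited counts (raw UMIs per gene and barcode) with Cell Ranger 4.0.0, whereas the submitters' processing notes name Cell Ranger 2.1.1 and mm10; which made these files could not be settled. Default parameters were used per the methods. Kept were barcodes with at least 200 genes and at most 30% mitochondrial UMIs, both limits of the study. Doublets stayed in all values.

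Panel scores were the mean of ln(1 + UMIs per 10000) over 116 of 118 listed genes found, scaled over both matrices, with limits of 1 (enteroendocrine and tuft 3). Paneth, goblet and enteroendocrine cells passed only their own lineage panel and stayed under the stem limit. Levels are CPM of UMIs summed per gate, with exact Poisson intervals, exact conditional binomial intervals for ratios and Clopper-Pearson intervals for shares, all at 95% and for counting error only. Genes with at least 50 UMIs in a gate over both matrices were measured. Lengths and positions came from GENCODE M21 (GRCm38), promoters from RefSeq. Ratios and thinning were tested on simulated data. Python 3.11.15, numpy 2.4.6, scipy 1.17.1, pandas 2.3.3 and matplotlib 3.10.9 were used.

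Members, gene lists and named genes were chosen with earlier results of these data known. Levels are given for the lowest and highest member of each role group by their ratio in progenitors and for Mki67, Top2a, Cdk1, Ccnb1, Aurkb, Cenpe, Cenpf, Kif11, Cks2 and Ube2c, and of the other mitotic genes for the 3 lowest and 3 highest; values for further members were added after they were seen. Motifs were searched as exact letters on both strands. Alternatives covered filters, gate limits, denominators, cell weighting, background subtraction and thinning; cells of 5000 to 15000 UMIs, scores from thinned cells, subtraction of the enterocyte level and sums without Mki67 and Top2a were added after seeing the data. Protein sequences were not used here.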

Additional observations from a re-analysis of the deposited data

Results flagged for a closer look

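Of the gates, 3 had a summed member level whose counting interval lay above WT in KO while that of progenitors lay below it (log2 ratio −0.73), and whether the gates differ was not tested, since each was 1 pooled matrix per genotype. The ratio was 0.25 in all secretory cells, 0.055 in Paneth cells and 0.42 in enteroendocrine cells. In tuft cells it was 0.11, with an interval that spans 0 (−0.012 to 0.23). With genes above 1% of UMIs out of the denominator the same ratios were −0.094, −0.029 and 0.26, and with every cell weighted equally 0.078, −0.077 and 0.92. In cells of 5000 to 15000 UMIs the secretory ratio was −1.15, the Paneth ratio 0.066 from 461 WT and 49 KO cells, and the enteroendocrine ratio −1.64 from 23 cells of each matrix. Depth moved with these ratios, as the median enteroendocrine cell held 2562 UMIs in WT and 13421 in KO, and its part in the result was not tested.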

How the results depend on the processing

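No paired analysis was possible because the 4 labelled samples of a group came as 1 matrix whose cells carry no sample number, and for the same reason no replicate could be left out. The summed log2 ratio stayed negative in progenitors and stem cells under every alternative run. In progenitors (−0.73 in the report) it was −0.77 with abundant genes out of the denominator, −0.70 with at least 500 genes per cell, −0.80 with cells weighted equally, −0.69 with scores scaled within each matrix, −0.65 with stricter gates and −3.00 with the tuft level subtracted; alternatives chosen after seeing the data gave −1.003 in cells of 5000 to 15000 UMIs, −0.80 with the enterocyte level subtracted and −0.52 without Mki67 and Top2a. In stem cells (−0.76) the same alternatives, in that order and leaving out the gene minimum, gave −0.78, −0.87, −0.62, −0.68, −4.29, −1.07, −0.83 and −0.58, a limit of 15% mitochondrial UMIs −0.73, leaving out the 10% of cells with most UMIs −0.80, and scores from thinned cells −0.94. In secretory cells (0.25) the sign turned with abundant genes out of the denominator (−0.094) and in cells of 5000 to 15000 UMIs (−1.15); it was 0.18 with at least 500 genes, 0.78 without the cells with most UMIs, 0.98 with the enterocyte level subtracted, 0.078 with cells weighted equally, 0.54 with scores scaled within each matrix, 0.45 with stricter gates and 0.39 without Mki67 and Top2a, and subtraction of the tuft level left nothing to compare. The median member in progenitors (−0.94) was −1.16 in the depth range and −2.18, over 26 members, with the tuft level subtracted, and otherwise within 0.18 of the reported value. The count of members at least 2-fold lower (18) lay between 16 and 22. The log2 ratio of the shares with member UMIs (−0.65) was −0.33 with cells thinned to 2000 UMIs, −0.86 in the depth range and −0.034 without thinning, where nearly all cells pass. Of 426 values of single members under 11 alternatives, 15 had another sign than in the report. Of these, 12 were of Birc5 (7), Cks2 (3) and Cdca3 (2), whose intervals in the report span 0, and the others were Ttk at 1.40 and Ube2c at −1.29 with the tuft level subtracted and Ube2c at −0.31 in the depth range. The causes were not tested. The tuft gate held dividing or mixed cells, with a mean of 26.7 member UMIs per KO cell, and is a poor measure of free RNA. Members with few UMIs, such as Gtse1, are limited by depth.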

Other observations

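Barcodes over the mitochondrial limit also held member transcripts, at 731 CPM in WT (1997 UMIs) and 623 CPM in KO (4041 UMIs), below the level of kept cells in both matrices. Cells that passed no gate had 2672 CPM of member transcripts in WT against 1843 in KO (log2 ratio −0.54, −0.55 to −0.52). Stem cells low in replication genes had a higher summed member CPM than those high in them, at 5056 against 3998 in WT and 2910 against 2476 in KO. Counted per cell they held fewer member UMIs, at 38.0 against 40.8 in WT and 38.1 against 42.1 in KO. After thinning to 1000 UMIs the share with at least 3 member UMIs was 60.3% against 57.0% in WT. In KO that share was 33.9% against 36.0%. The CPM ratio of KO to WT was −0.80 (−0.83 to −0.77) in stem cells low in replication genes and −0.69 (−0.72 to −0.66) in those high in them.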
